A study of Arabidopsis thaliana with 6 samples.

Results

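The genes described here encode the enzymes that make cytokinins and turn them into their active form in Arabidopsis thaliana. The 10 members were taken by gene identifier: IPT3, IPT5 and IPT9, CYP735A1 and CYP735A2, and LOG1, LOG3, LOG4, LOG7 and LOG8. All 10 were present among the 18734 genes of the count table and among the 18340 genes of the RPKM table. RNA was measured in ore15-2, a T-DNA insertion line of the PLATZ transcription factor gene ORE15 in the Columbia background, and in wild-type Columbia (Col), with 3 libraries of each genotype. The tissue of both was the terminal 0.5 cm of the primary root at 5 days after planting, from seedlings grown on half-strength Murashige and Skoog plates in continuous light. The labels list only 1 insertion allele and state 2 seedlings per genotype, and they do not say whether the 3 libraries came from separate plants, so the p-values measure the spread between these libraries, which may be technical.

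Cytokinins are adenine derivatives with a side chain. Isopentenyltransferases (IPT) add that side chain, either to adenosine phosphates, which starts the synthesis of isopentenyladenine and trans-zeatin, or to tRNA, which yields cis-zeatin when the tRNA is broken down. The cytochromes CYP735A1 and CYP735A2 hydroxylate the side chain and so make the trans-zeatin forms, and the LONELY GUY (LOG) enzymes release the active free base from the nucleotide in a single step. In the root tip cytokinin is known to promote the exit of cells from the meristem into differentiation, against auxin, and to pattern the vascular cylinder.

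Total counts were 6396903 to 16503138 per ore15-2 library and 17433440 to 20333352 per Col library. The share of mitochondrial genes was 2.91%, 3.20% and 0.328% in the ore15-2 libraries, against 0.183% to 0.250% in Col, so ore15-2 replicates 1 and 2 stood apart from the other libraries in depth and in this share. AT1G31040, taken from background knowledge to be ORE15, had 0, 0 and 1 counts in ore15-2 and 13, 12 and 8 in Col. All 8 root meristem markers were counted in every library, with a summed level of 140 to 193 CPM (counts scaled to library size with TMM factors) in ore15-2 and 168 to 185 CPM in Col, and so were all root hair, phloem and xylem markers, although the labels name the cell type as root meristem stem cells. On chromosome 1 from 8692630 to 11059037 (TAIR10.1) 318 of 401 tested genes rose in ore15-2, with a median log2 fold change of 0.96, and none of the 10 members lies there. The bounds of this segment were not set by a stated rule, and earlier results of these data were known when they were used. The count of genes that rose there is therefore a description and no test.

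Of the 10 members 2 fell in ore15-2, 0 rose and 8 did not pass edgeR's quasi-likelihood test at an adjusted p under 0.05. Those that fell were CYP735A2, the hydroxylase of trans-zeatin synthesis, to 49.2% of its level in Col, and LOG1, an activating enzyme, to 44.1%. In root tips sampled in bulk, fewer cells of a type and less RNA per cell cannot be told apart. Among all 18726 genes tested 3.43% fell, 6.47% rose and 9.9% changed in either direction. DESeq2 called the same 2 members, beside 4.56% of all genes lower and 13.4% changed. The values of the genotypes did not overlap, with ore15-2 lower, for 4 members (IPT3, CYP735A1, CYP735A2 and LOG1), against 16.3% of all tested genes. No member was higher without overlap. In either direction 4 of the 10 members thus had no overlap, against 34.5% of all tested genes. The fitted log2 fold change was below 0 in 9 members, with a median of -0.38, and below 0 in 50.1% of all tested genes, with a median of -0.00. The members were chosen by name with earlier results of these data known, so these shares are a description and were not tested as a set.

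**Figure D1:**
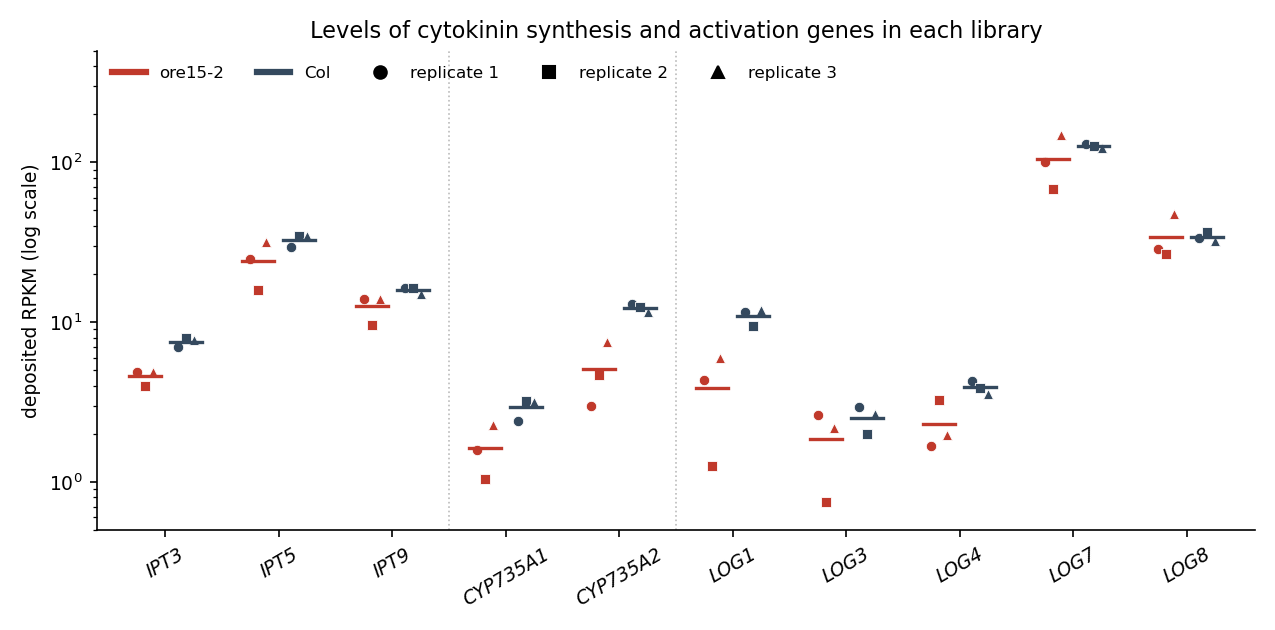
Deposited RPKM (reads scaled to gene length and library size, log axis) of the 10 genes in each library, with ore15-2 in red on the left and Col in dark blue on the right of each gene, a symbol per replicate and a bar at the mean. LOG7 was the highest gene in every library, and the ore15-2 values of CYP735A2 (3.01 to 7.54) and LOG1 (1.26 to 5.99) lay below all Col values of those genes (11.6 to 12.9 and 9.41 to 11.9).

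Per coding length the members spanned a wide range of levels. LOG7 had the highest mean RPKM in both genotypes, 105 in ore15-2 and 127 in Col, which was 64.6 times the lowest member (CYP735A1) in ore15-2 and 50.3 times the lowest (LOG3) in Col. LOG8, IPT5 and IPT9 followed LOG7 in this order in both genotypes. The ranges of LOG8 and IPT5 overlapped in each genotype, but within a library LOG8 was the higher of the pair in 3 of 3 ore15-2 libraries and in 2 of 3 Col libraries. Among the lower members the ranges of neighbours in the order overlapped from CYP735A2 down to CYP735A1 in ore15-2. In Col they overlapped only between CYP735A2 and LOG1 and between CYP735A1 and LOG3. CYP735A2 and LOG1 were the fifth and the seventh members in ore15-2, with IPT3 between them, and the fifth and the sixth in Col.

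The isopentenyltransferases were the first step measured. IPT3 (AT3G63110, chromosome 3, 23317971 to 23319636, minus strand, 1 exon) adds the side chain to adenosine phosphates and is known as a nitrate-responsive gene of the phloem. Its counts were 32, 25 and 81 in ore15-2 replicates 1 to 3 and 123, 163 and 149 in Col replicates 1 to 3. Scaled to library size these were 5.17, 4.97 and 4.63 CPM in ore15-2 and 6.38, 7.40 and 7.12 CPM in Col. Every ore15-2 library was thus lower than every Col library, and the ore15-2 libraries were close to each other (4.92 ± 0.272 CPM, SD, n = 3), although their depth and mitochondrial share differed. The log2 fold change of -0.52 (SE 0.16) did not pass the threshold (edgeR adjusted p = 0.0762).

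IPT5 (AT5G19040, chromosome 5, 6361776 to 6363713, minus strand) encodes another adenosine phosphate enzyme and was the most abundant isopentenyltransferase transcript here. Its CPM were 25.8, 19.3 and 29.5 in ore15-2 and 26.4, 31.5 and 31.3 in Col. The genotypes overlapped, the lowest value being ore15-2 replicate 2, and the log2 fold change of -0.23 (SE 0.15, edgeR adjusted p = 0.355) did not pass. The summed RPKM of IPT3 and IPT5 was 28.7 ± 8.43 in ore15-2 and 40.5 ± 3.30 in Col (SD, n = 3 each). RPKM carries no TMM factor. On that scale the median gene was at log2 -0.18, -0.40 and -0.04 in ore15-2 replicates 1 to 3 relative to Col. IPT5 made up 79.8% to 86.6% of the sum of IPT3 and IPT5 in ore15-2 and 80.8% to 81.8% in Col.

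IPT9 (AT5G20040, chromosome 5, 6767701 to 6771190, minus strand) encodes a tRNA isopentenyltransferase, the branch that leads to cis-zeatin. Its CPM were 20.4, 16.5 and 18.3 in ore15-2 and 20.6, 20.8 and 19.0 in Col, which overlapped (log2 fold change -0.13, SE 0.12, edgeR adjusted p = 0.517). Outside the members, the other tRNA enzyme IPT2 had a log2 fold change of -0.11 and the adenosine phosphate enzyme IPT7 one of -0.20 (edgeR adjusted p = 0.849 and 0.581). IPT2 was at 9.37, 2.98 and 9.89 CPM in ore15-2 and 9.59, 7.99 and 7.88 CPM in Col, so that ore15-2 replicate 2 alone lay below the others.

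The hydroxylases followed. CYP735A2 (AT1G67110, chromosome 1, 25061673 to 25065446, minus strand, 4 exons) is known as a root-expressed gene that cytokinin induces. Its counts were 30, 44 and 190 in ore15-2 and 345, 385 and 343 in Col. These amounted to 4.85, 8.75 and 10.9 CPM in ore15-2 and to 17.9, 17.5 and 16.4 CPM in Col. The highest ore15-2 library thus lay below the lowest Col library, while the ore15-2 libraries spread more widely than those of Col. The mean was 8.15 ± 3.05 CPM in ore15-2 and 17.3 ± 0.776 CPM in Col (SD, n = 3 each), with a log2 fold change of -1.02 (SE 0.23, edgeR adjusted p = 0.0252). Relative to the Col mean the log2 CPM of ore15-2 replicates 1, 2 and 3 was lower by 1.80, 0.97 and 0.66, so the fall was smallest in replicate 3, the library with a depth and a mitochondrial share near those of Col. With that library alone against Col, which assumes that it varies as Col does, the log2 fold change was -0.66 (edgeR adjusted p = 0.00453). In the fits without Col replicate 1, 2 or 3 the change was -1.03, -1.06 and -1.10 but the call was lost (edgeR adjusted p = 0.0999, 0.0983 and 0.0694).

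CYP735A1 (AT5G38450, chromosome 5, 15393720 to 15397295, minus strand, 5 exons) encodes the other hydroxylase and was the scarcer of the pair in every library. Its counts were 16, 10 and 58 in ore15-2 and 65, 101 and 95 in Col. The corresponding values were 2.58, 1.99 and 3.32 CPM in ore15-2 and 3.37, 4.59 and 4.54 CPM in Col, with a gap between ore15-2 replicate 3 and Col replicate 1 that is small against the spread within either genotype. The log2 fold change of -0.57 (SE 0.23) did not pass (edgeR unadjusted p = 0.0376, adjusted p = 0.158). The summed RPKM of the pair, again without a TMM factor, was 6.69 ± 2.76 in ore15-2 and 15.3 ± 0.395 in Col (SD, n = 3 each).

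Reads were counted per gene, and a read within a stretch that paralogs share fits either copy. Whether such reads were placed or dropped was not tested. The coding sequences of the hydroxylase genes were 77.0% identical, with a longest identical run of 36 bases near the 3' end. That run is shown in capitals in the coding strand of the TAIR10.1 reference, with 12 further coding bases on each side, because it marks the longest stretch over which reads of the pair cannot be told apart:
CYP735A2, chr1:25061851-25061910 (minus strand): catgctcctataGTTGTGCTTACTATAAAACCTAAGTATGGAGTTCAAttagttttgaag
CYP735A1, chr5:15394015-15394074 (minus strand): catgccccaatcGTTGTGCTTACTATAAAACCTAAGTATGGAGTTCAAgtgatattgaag
The read length is not given in the sources used here, and a read longer than the run would carry at least 1 difference between the genes.

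The LOG genes release the active base. Of the 5, 1 fell, and the other 4 did not pass the test. The stretch that encodes the conserved glycine-rich motif of the family is shown for the 5 members, in the coding strand of the TAIR10.1 reference and with the intron inside it spliced out, to show how far these paralogs differ even where the protein motif is shared. Capitals mark the 25 of 42 positions at which all 5 genes have the same base:
LOG1, chr2:12083375-12083519 (plus strand): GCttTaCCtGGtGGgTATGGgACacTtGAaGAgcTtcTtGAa
LOG3, chr2:15624677-15625541 (minus strand): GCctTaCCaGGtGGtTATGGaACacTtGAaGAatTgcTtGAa
LOG4, chr3:19813432-19814310 (minus strand): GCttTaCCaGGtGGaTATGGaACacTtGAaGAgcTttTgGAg
LOG7, chr5:1922919-1923066 (minus strand): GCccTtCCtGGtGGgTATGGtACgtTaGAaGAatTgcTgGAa
LOG8, chr5:3856072-3856196 (plus strand): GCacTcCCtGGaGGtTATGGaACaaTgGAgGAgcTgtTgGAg
Over the whole coding sequence LOG1 was 78.7% identical to LOG3, 76.5% to LOG4, 69.9% to LOG7 and 66.3% to LOG8, and its longest identical run with any of them was 26 bases, with LOG3.

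LOG1 (AT2G28305, chromosome 2, 12081023 to 12084678, plus strand, 7 exons) had 18, 5 and 63 counts in ore15-2 and 129, 122 and 146 in Col. This was 2.91, 0.994 and 3.60 CPM in ore15-2 and 6.69, 5.54 and 6.98 CPM in Col. Every ore15-2 library was lower than every Col library, and ore15-2 replicate 2, with only 5 counts, was the lowest. Its exact 95% counting interval of 0.323 to 2.32 CPM did not reach the lowest Col value of 5.54 CPM. The mean was 2.50 ± 1.35 CPM in ore15-2 and 6.40 ± 0.760 CPM in Col (SD, n = 3 each), with a log2 fold change of -1.18 (SE 0.29, edgeR adjusted p = 0.0360). LOG1 made up 1.26% to 3.13% of the summed LOG RPKM in ore15-2 and 5.28% to 6.82% in Col. The call was lost without ore15-2 replicate 1 (edgeR adjusted p = 0.126) and without Col replicate 1, 2 or 3 (edgeR adjusted p = 0.130, 0.0944 and 0.117), with log2 fold changes between -1.16 and -1.33 in these 4 fits.

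**Figure D2:**
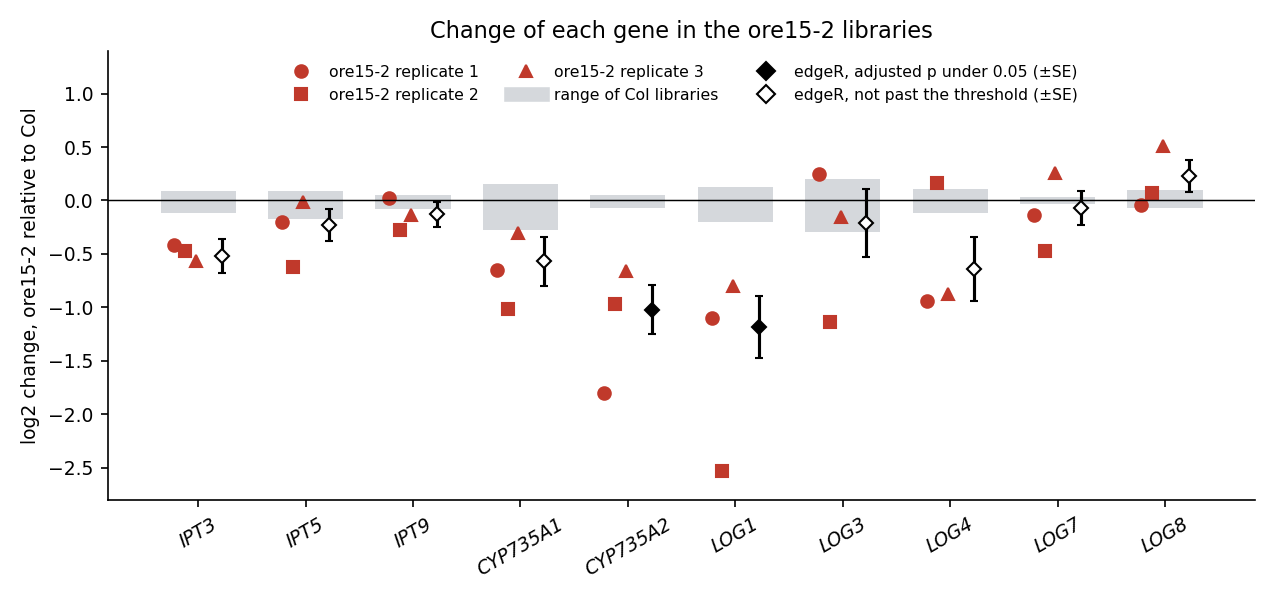
Log2 change of each gene relative to the mean of the Col libraries, with a red symbol for each ore15-2 library, a grey bar for the range of the Col libraries and a diamond for the edgeR log2 fold change ± SE (filled where the adjusted p was under 0.05). The 3 ore15-2 libraries lay below the Col range for IPT3, CYP735A1, CYP735A2 and LOG1, and LOG7 and LOG8 had ore15-2 libraries on both sides of 0.

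LOG3 and LOG4 are known targets of the TMO5 and LHW factors in young vascular cells. LOG3 (AT2G37210, chromosome 2, 15623928 to 15627032, minus strand) had 11, 3 and 23 counts in ore15-2 and 33, 26 and 33 in Col. Its level was 1.78, 0.596 and 1.32 CPM in ore15-2 and 1.71, 1.18 and 1.58 CPM in Col, where the genotypes overlapped (log2 fold change -0.21, SE 0.32, edgeR adjusted p = 0.702). The 3 counts of ore15-2 replicate 2 had an exact 95% interval of 0.123 to 1.74 CPM, which reaches past all 3 Col values.

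LOG4 (AT3G53450, chromosome 3, 19812977 to 19815666, minus strand) had 7, 13 and 21 counts in ore15-2 and 48, 51 and 44 in Col. These were 1.13, 2.58 and 1.20 CPM in ore15-2 and 2.49, 2.32 and 2.1 CPM in Col. Replicates 1 and 3 of ore15-2 were below all Col libraries and replicate 2 was above them, and the log2 fold change of -0.64 (SE 0.30, edgeR adjusted p = 0.206) did not pass. LOG3 and LOG4 were the closest pair, with 87.7% identical coding bases and an identical run of 41 bases. The effect of shared stretches on the counts of these low genes was not tested. That run of 41 bases is given in capitals, spliced and with its coding flanks, since it marks the longest stretch the pair shares:
LOG3, chr2:15625573-15626119 (minus strand): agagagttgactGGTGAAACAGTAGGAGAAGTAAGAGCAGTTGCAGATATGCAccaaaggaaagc
LOG4, chr3:19814342-19814682 (minus strand): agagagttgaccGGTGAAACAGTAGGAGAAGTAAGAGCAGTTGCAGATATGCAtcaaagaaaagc
Of the regulators upstream of the pair, LHW, TMO5 and the TMO5 relative T5L1 had log2 fold changes of -0.21, -0.27 and -0.50. None of these 3 passed by edgeR (adjusted p = 0.265, 0.398 and 0.0593), 1 had an unadjusted p under 0.05, and DESeq2 called 1.

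LOG7 (AT5G06300, chromosome 5, 1921548 to 1925407, minus strand) accounted for 68.1% to 72.8% of the summed LOG RPKM in ore15-2 and 71.0% to 71.3% in Col. Its CPM were 68.8, 54.7 and 90.5 in ore15-2 and 77.0, 75.8 and 74.1 in Col. The ore15-2 libraries lay on both sides of the Col libraries, which differed little from each other, and the log2 fold change was -0.07 (SE 0.16, edgeR adjusted p = 0.807), a sign that flipped to 0.09 without ore15-2 replicate 2. LOG8 (AT5G11950, chromosome 5, 3854388 to 3857243, plus strand) was at 19.7, 21.3 and 28.8 CPM in ore15-2 and 19.8, 21.8 and 19.2 CPM in Col. Only ore15-2 replicate 3 lay above the Col range, and the log2 fold change was 0.23 (SE 0.15, edgeR adjusted p = 0.371), which was -0.02 without that library. In replicate 3 alone against Col, LOG7 and LOG8 had log2 fold changes of 0.27 and 0.52, a fit with no spread measured within ore15-2. Without that library LOG7 was at -0.32 (edgeR adjusted p = 0.0395). The summed RPKM of the 5 LOG genes was 148 ± 53.2 in ore15-2 and 179 ± 4.87 in Col (SD, n = 3 each), a difference smaller than the spread among the ore15-2 libraries. This sum carries no TMM factor either.

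The number of members called moved with single libraries, as did the share of all genes called. It was 0 without Col replicate 1, 2 or 3, where 3.98%, 3.39% and 4.38% of all tested genes changed. It was 1 without ore15-2 replicate 1 (CYP735A2), beside 4.88% of all genes, and 3 without ore15-2 replicate 2 (CYP735A2, LOG1 and LOG4), beside 11.3%. It was 5 without ore15-2 replicate 3 (IPT5, CYP735A1, CYP735A2, LOG1 and LOG7, all lower). In that last fit 16.6% of all tested genes fell and 35.3% changed in either direction. With ore15-2 replicates 1 and 2 both left out CYP735A2 and LOG1 fell and LOG7 and LOG8 rose, beside 5.63% of all genes lower and 16.6% changed. CYP735A2 and LOG1 had negative log2 fold changes in every alternative that tested them, from -1.41 to -0.66 for CYP735A2 and from -1.73 to -0.81 for LOG1.

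**Figure D3:**
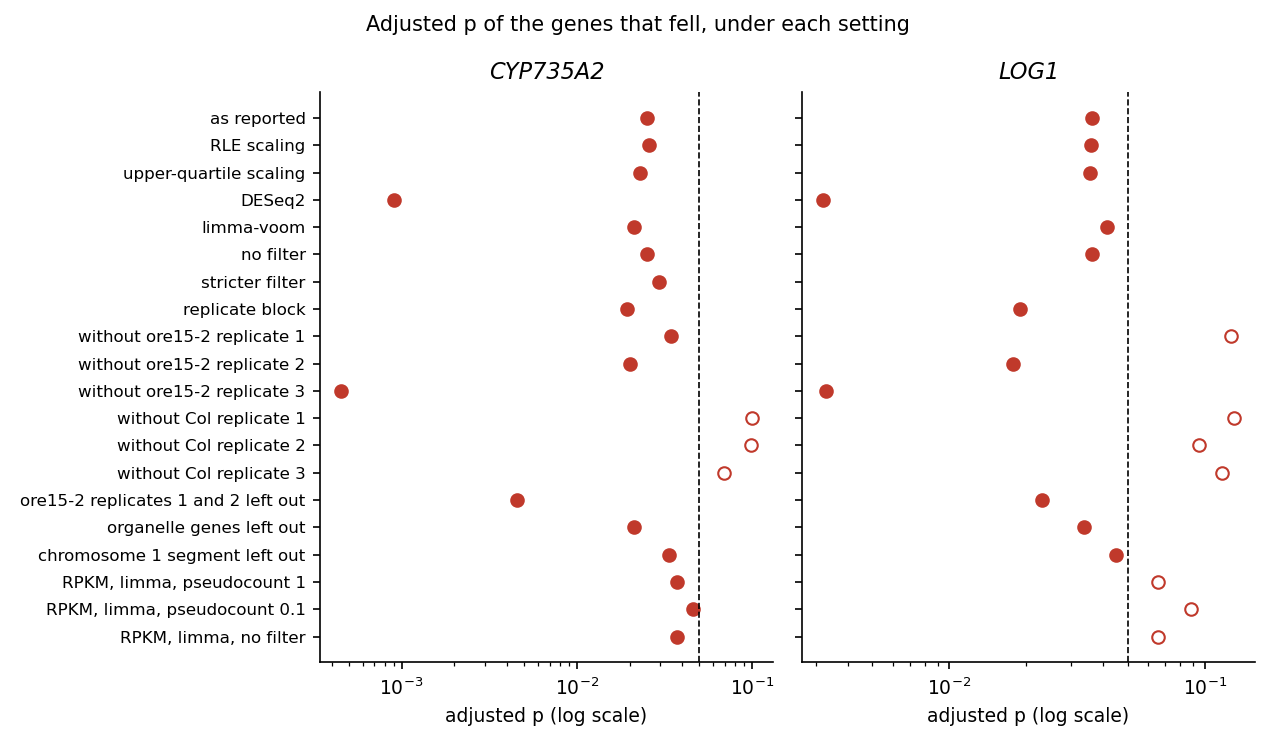
Adjusted p (log axis) of CYP735A2 and LOG1 for the fit reported and for each alternative setting, with the dashed line at 0.05 and filled points below it. CYP735A2 stayed below 0.05 except without Col replicate 1, 2 or 3 (0.0694 to 0.0999), and LOG1 was above it without those libraries, without ore15-2 replicate 1 and in the RPKM fits, and the stricter filter left it out.

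The remaining genes of cytokinin metabolism did not share a direction. Of 4 cytokinin oxidases (CKX), which degrade cytokinins, CKX5 rose and 3 did not pass. CKX5 was at 8.40, 7.95 and 8.29 CPM in ore15-2 and 5.86, 5.22 and 4.83 CPM in Col, so all ore15-2 libraries were higher and close to each other (log2 fold change 0.64, SE 0.15, edgeR adjusted p = 0.0324). It shares 347 exon bases with UBC16 on the opposite strand, and its call was lost without ore15-2 replicate 1, without any one of the Col libraries, with the replicate block and in the 3 fits of RPKM, where its log2 difference was 0.33 to 0.40 (limma adjusted p = 0.208 to 0.221). Of 3 glucosyltransferases, which attach glucose to cytokinins, UGT85A1, which acts on trans-zeatin, fell and UGT76C1 and UGT76C2 did not pass (log2 fold changes 0.37 and -0.16). UGT85A1 was at 10.3, 10.3 and 11.7 CPM in ore15-2 and 25.6, 24.2 and 20.4 CPM in Col, a fall alike in the 3 libraries (log2 fold change -1.10, SE 0.14, edgeR adjusted p = 0.00165). It stayed past the threshold in all 19 alternatives, in contrast to CYP735A2 and LOG1.

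Of 6 purine salvage enzymes, which interconvert cytokinin bases and nucleotides, APT1, an adenine phosphoribosyltransferase in the raised segment of chromosome 1, rose by 1.38 on the log2 scale (edgeR adjusted p = 0.00502), and 5 did not pass. Of 5 transporters 0 passed by edgeR, 2 had an unadjusted p under 0.05 and DESeq2 called 1. The smallest of these p-values belonged to ABCG14, which exports cytokinins from the root, with a log2 fold change of -0.50 (edgeR adjusted p = 0.0886). ABCG14 was at 73.0, 71.4 and 101 CPM in ore15-2 and 96.9, 122 and 129 CPM in Col.

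In signalling, the receptor AHK2 fell by 0.59 on the log2 scale (edgeR adjusted p = 0.0355), AHK3, in the raised segment, rose by 0.91 (edgeR adjusted p = 0.00225) and AHK4 had a log2 fold change of 0.07. The AHK2 call was lost without ore15-2 replicate 1, with ore15-2 replicates 1 and 2 both left out, without any one of the Col libraries and in the 3 RPKM fits, and the AHK3 call was lost in the 3 RPKM fits (limma adjusted p = 0.0903 to 0.0953). Neither edgeR nor DESeq2 called any of 4 phosphotransfer proteins (0 calls), and 1 of them, AHP1, reached an unadjusted p under 0.05 (log2 fold change 0.34, edgeR adjusted p = 0.0914). Of 7 type-A response regulators, which cytokinin induces, ARR3 rose by 0.74 (edgeR adjusted p = 0.0136) and 6 did not pass. DESeq2 called 2 of the 7, ARR3 and ARR4. The list median was -0.01, but by library it was -0.05, -0.46 and 0.26 in ore15-2 replicates 1 to 3 relative to Col. Without ore15-2 replicate 3, 2 of the 7 rose and 2 fell by edgeR, beside 35.3% of all tested genes changed. The ARR3 call was lost without any one of the Col libraries and in the 3 RPKM fits. In those RPKM fits its log2 difference was 0.48 (limma adjusted p = 0.138 to 0.144). Of 5 type-B response regulators, the transcription factors of the pathway, edgeR and DESeq2 each called 0, and the list median was -0.10. ARR10 was the 1 with an unadjusted p under 0.05 (log2 fold change 0.36, edgeR adjusted p = 0.0850).

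**Figure D4:**
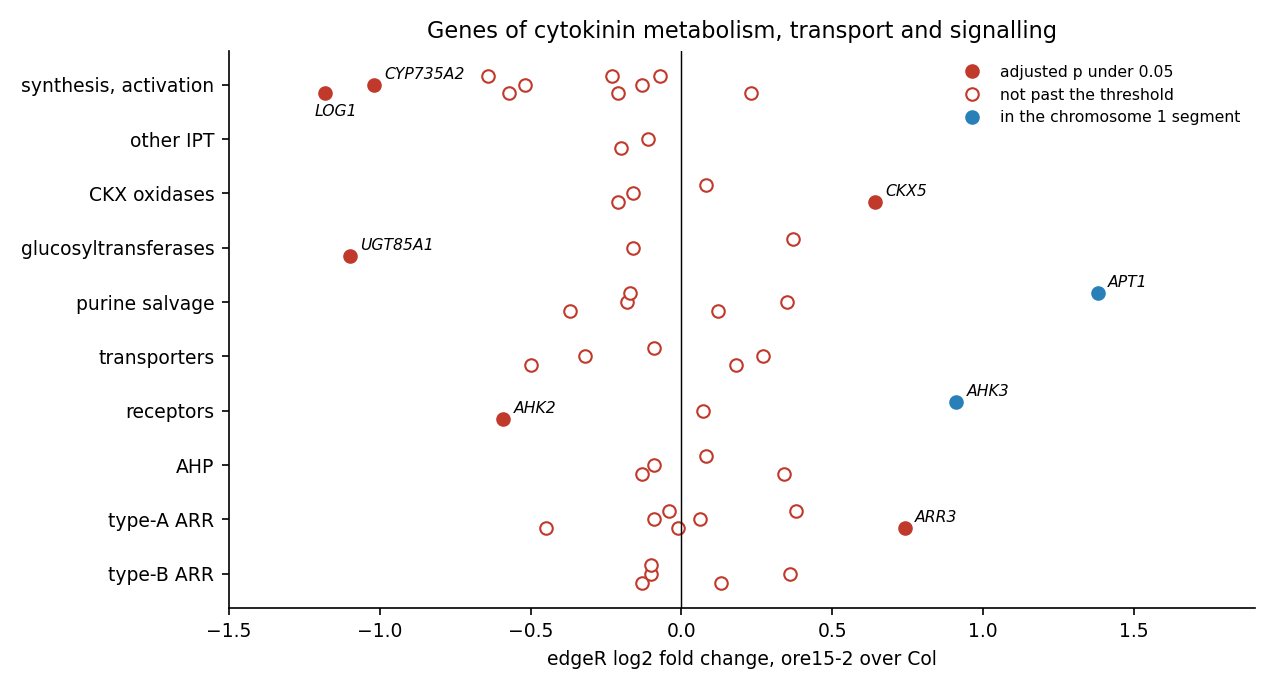
The edgeR log2 fold change (ore15-2 over Col) of each measured gene of cytokinin metabolism, transport and signalling, 1 row per group, filled where the adjusted p was under 0.05 and blue where the gene lies in the raised chromosome 1 segment. CYP735A2, LOG1, UGT85A1 and AHK2 fell, and CKX5, ARR3, APT1 and AHK3 rose, with APT1 and AHK3 lying in the segment.

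The summed levels of vascular markers were lower in the same libraries. The summed level of 12 phloem markers was 105 to 155 CPM in ore15-2 and 168 to 192 CPM in Col, and 3 of the 12 fell: SUC2 and PP2-A1, genes of companion cells, at -1.47 and -1.49 on the log2 scale, and the sieve element gene SEOR1 at -0.68. Without these 3 the other 9 phloem markers summed to 75.5 to 114 CPM in ore15-2 and 98.2 to 106 CPM in Col, which overlapped. As the genes left out were those that passed in the same data, this overlap is in part set by the choice. The SEOR1 call was lost without ore15-2 replicate 1, without any one of the Col libraries and in the 3 RPKM fits. PP2-A1 shares 284 of its 1514 exon bases with AT4G19830 on the opposite strand. The summed level of 10 xylem markers was 285 to 351 CPM in ore15-2 and 391 to 431 CPM in Col, and 1 of the 10, the thermospermine synthase ACL5, fell by 1.06 on the log2 scale. ACL5 shares 196 of its 1697 exon bases with MSL9 on the opposite strand. DESeq2 called 2 of the 10, ACL5 and HB8. Without ACL5 the other 9 summed to 237 to 296 CPM in ore15-2 and 289.7 to 326 CPM in Col, which overlapped through ore15-2 replicate 3. Here too the gene left out was the 1 that passed. All 10 had log2 fold changes below 0, against 50.1% of all tested genes. For 5 of the 10 every ore15-2 library lay below every Col library, against 16.3% of all tested genes. The medians of both lists were -0.20. The 8 root hair markers summed to 599 to 996 CPM in ore15-2 and 353 to 413 CPM in Col, and 6 of the 8 rose (RSL4, LRX1, PRP3, COBL9, EXPA18 and EXPA7), with RSL4 in the raised segment. Of the 8 only RSL4 passed without Col replicate 1, 2 passed without Col replicate 2 or 3 (RSL4 and LRX1), and 2 passed in the 3 RPKM fits (PRP3 and LRX1). The 4 root cap markers summed to 36.6 to 48.1 CPM in ore15-2 and 27.4 to 34.0 CPM in Col, and FEZ, in the raised segment, was the 1 that rose, a call lost without any one of the 6 libraries other than ore15-2 replicate 3, with ore15-2 replicates 1 and 2 both left out, and under upper-quartile scaling, limma-voom and the 3 RPKM fits. The 8 root meristem markers had 0 calls by edgeR or DESeq2 and 1 unadjusted p under 0.05, that of WOX5 (log2 fold change -0.60, edgeR adjusted p = 0.129). Their median log2 change relative to Col was 0.02, 0.09 and -0.35 in ore15-2 replicates 1 to 3, so replicate 3 differed from the others. For 3 of the 8 every ore15-2 library lay below every Col library, and for 1 above. Among all tested genes 16.3% were lower without overlap and 34.5% had no overlap in either direction. No marker of these lists was at 0 in any library. The part of these marker shifts in the values of IPT3, CYP735A2 and LOG1 was not tested.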

How the data were processed

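RNA-seq of 3 ore15-2 and 3 Col libraries was analysed. The authors deposited read counts per gene, and RPKM values normalized by gene length and read number. TopHat2, HTSeq, cutadapt, FastQC and the TAIR10 build are named, with no role or order, per the submitters' processing notes. The sources used here do not state the strand setting of the counting, so overlapping genes may share reads. Per the labels' protocols, the libraries were poly(A) selected with a stranded kit from RNA with an integrity number of at least 6.7. In all 18340 genes of both tables the deposited RPKM and counts gave 1 length per gene (relative tolerance 0.0001, after 1 factor per library), so RPKM is no separate measurement. RPKM carries no TMM factor, and on that scale the median gene was at -0.21 in ore15-2 (log2).

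Counts were tested with edgeR 4.0.16 (R 4.3.3, TMM, filterByExpr, quasi-likelihood F-test, genotype only) and adjusted by Benjamini-Hochberg over 18726 genes, threshold 0.05. SE is the log2 fold change over the square root of F. TMM factors were 0.786 to 1.06 in ore15-2 and 1.08 to 1.11 in Col. Changes per library use log2 CPM with a prior count of 2. A floor of 3 counts was 0.172 to 0.596 CPM in ore15-2 and 0.136 to 0.156 CPM in Col. Intervals cover counting error only. The members and 16 further lists (113 genes, 90 of them used, since the count table lacked 22 and the reference lacks the name of 1) were chosen with earlier results of these data known. By rule, all members are named and, of each further list, up to 4 genes past the threshold with the smallest p, or where none passed the gene with the smallest p. The genes IPT2, UGT76C1, UGT76C2, AHK4, TMO5, LHW, ARR4, HB8, NRT1.1 and the remaining root hair genes that rose were named in addition after their values were seen. Sequences and positions come from TAIR10.1 with its RefSeq annotation, whose nuclear gene identifiers match the files. The annotated coding lengths of the 10 members were 1.007 to 1.008 times the lengths implied by the RPKM values. DESeq2 1.42.0, limma 3.58.1 (voom, and RPKM with a pseudocount of 1 or 0.1 and a minimum mean of 1), other scalings and filters, a replicate block, libraries left out and gene sets left out were the 19 alternatives. The code was tested on simulated data.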

Additional observations from a re-analysis of the deposited data

How the results depend on the processing

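The number of genes changed was 1854, with 1211 higher and 643 lower. It ranged from 634 to 6612 when single libraries were left out. It was 3109 with ore15-2 replicates 1 and 2 left out together, and 1110, 1037 and 1133 in the limma fits of RPKM with a pseudocount of 1, with one of 0.1 and without a filter, where 469, 447 and 474 genes were higher. The number of members changed was 2. It ranged from 0 to 5 when single libraries were left out, was 4 with ore15-2 replicates 1 and 2 left out together, and was 1 in each of the 3 RPKM fits and under the stricter filter, which removed CYP735A1, LOG1, LOG3 and LOG4. In the RPKM fits LOG1 had adjusted p = 0.0657, 0.0884 and 0.0654 (limma). The sign of LOG7 turned to 0.09 without ore15-2 replicate 2 and to 0.27 with ore15-2 replicates 1 and 2 left out together. With ore15-2 replicate 3 left out LOG7 was at -0.32 and past the threshold. LOG8 was at 0.33 without ore15-2 replicate 1. Its sign turned to -0.02 without ore15-2 replicate 3 and to -0.04 in each of the 3 RPKM fits, and the cause was not tested. Whether the replicate numbers pair the libraries was not settled. Deviations of same-numbered libraries correlated at 0.107, 0.150 and -0.229 across genes, and not every library correlated best with its own number. Given 3 libraries per genotype, and ore15-2 replicates 1 and 2 apart from replicate 3, these correlations cannot show or exclude a pairing. With the replicate block 1641 genes and the same 2 members changed, while CKX5 did not pass. RLE and upper-quartile scaling, limma-voom, DESeq2, no filter, and leaving out organelle genes or the chromosome 1 segment called the same 2 members. Counts under 20 in ore15-2 replicates 1 and 2 limit what can be said of CYP735A1, LOG1, LOG3 and LOG4.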

Other observations

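Genes of the primary nitrate response, to which IPT3 is known to belong, were also measured. Both edgeR and DESeq2 called 0 of 6 genes, and 2 reached an unadjusted p under 0.05. The nitrate reductase gene NIA1 had a log2 fold change of 0.63 (edgeR adjusted p = 0.111). The list median was 0.18, and no gene of the list had a fitted log2 fold change below 0. By library, the list median was 0.10, 0.29 and 0.00 in ore15-2 replicates 1 to 3 relative to Col. NIA1 was at 0.78, 0.99 and 0.13 in these libraries. NRT1.1 was at -0.12, 0.56 and -0.21, with a fitted log2 fold change of 0.11 (edgeR adjusted p = 0.726). IPT3 was at -0.52 and did not pass, and its relation to nitrate was not tested.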
